A study of Angelica pubescens with 12 samples.

Results

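Phenylalanine ammonia-lyase (PAL), cinnamate 4-hydroxylase (C4H, also called trans-cinnamate 4-monooxygenase) and 4-coumarate-CoA ligase (4CL) are the entry enzymes of phenylpropanoid synthesis. They were followed in roots of Angelica pubescens as 4 listed unigenes out of the 67432 of the de novo assembly. A unigene is an assembled transcript, and its name here is that of the protein it matches best. The members are PAL3 (TRINITY_DN23454_c1_g2_i2_3), 2 C4H unigenes here called C4H-a (TRINITY_DN18621_c0_g1_i3_4) and C4H-b (TRINITY_DN19642_c0_g1_i1_3), and 4CL1 (TRINITY_DN22443_c1_g2_i2_2). The dried root is a drug of Chinese medicine, and the study asked how its gene expression differs between producing areas. Roots aged 2 years were taken in Chongqing, Gansu, Hubei and Shanxi, with 3 libraries from each area and no treatment. The labels name no cultivar, harvest date or number of plants per library. They also do not call the replicates separate plants, so the p-values below cover the spread among these libraries alone, which may be technical.

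PAL removes ammonia from phenylalanine and gives cinnamic acid. C4H is a cytochrome P450 of the CYP73 family that adds a hydroxyl group to cinnamic acid, and 4CL joins the resulting coumaric acid to coenzyme A. The activated acid feeds the lignin, flavonoid and coumarin branches, and coumarins are the compounds for which this root is known.

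The libraries held 19920182 to 23319714 counts, and 85.6% to 89.0% of the unigenes had counts in a given library. The counts of replicates differed beyond sampling in each of 12 pairs (chi-square of 4.47 to 8.85 for each degree of freedom). Of 60756 unigenes tested, edgeR's quasi-likelihood test called 70.4% as different between any of the 4 areas at a Benjamini-Hochberg adjusted p under 0.05, and all 4 members were among them. In whole-root RNA, fewer cells of a type and less RNA per cell cannot be told apart. The unigenes came from a transcript assembly, so close paralogs or alleles can share or split reads, and each member is an uncertain measure of its gene.

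The best protein match of PAL3 was a PAL of Angelica sinensis, with PAL3 of parsley as the Swiss-Prot entry. That of 4CL1 was a 4CL of Angelica decursiva, with 4CL-1 of parsley. C4H-a and C4H-b had the same best match, a C4H of Angelica dahurica, and came from different clusters of the assembly. No other unigene shared the best match of PAL3 or of 4CL1, so the sum per matched protein differs from the single unigene for C4H alone.

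PAL3, C4H-a and 4CL1 were highest in Hubei roots and lowest in Chongqing roots, while C4H-b was highest in Gansu and lowest in Shanxi. The span between the highest and the lowest area mean was 18.1-fold for PAL3, 10.6-fold for C4H-a, 27.9-fold for C4H-b and 6.27-fold for 4CL1. Within an area the 3 libraries of a member had a coefficient of variation of 0.564% to 14.7%. Levels per length are given as FPKM (fragments scaled for unigene length and library size), the unit in which different unigenes can be compared, and tests used counts, shown as CPM (counts scaled to a common library size).

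PAL3, the first step, had 11.5, 11.6 and 10.3 FPKM in Chongqing and 117, 118 and 109 FPKM in Gansu. Its libraries held 203, 198 and 186 FPKM in Hubei and 50.5, 44.9 and 48.8 FPKM in Shanxi. The ranges of the 4 areas did not overlap, in the order Hubei, Gansu, Shanxi, Chongqing. By FPKM, PAL3 ranked 466 among all unigenes in Hubei and 11002 in Chongqing.

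C4H-a, the more abundant C4H unigene in 3 of the areas, had 27.6, 27.3 and 28.1 FPKM in Chongqing and 110, 115 and 109 FPKM in Gansu. It had 294, 291 and 265 FPKM in Hubei and 162, 149 and 156 FPKM in Shanxi. The areas again did not overlap, but Shanxi stood above Gansu, the reverse of their order for PAL3. In Hubei C4H-a had the highest level of any member, with a mean of 283 ± 15.8 FPKM (SD, n = 3).

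C4H-b had 7.73, 8.08 and 6.39 FPKM in Chongqing and 120, 132 and 111 FPKM in Gansu. It had 116, 103 and 92.1 FPKM in Hubei, and 3.88, 4.39 and 4.31 FPKM in Shanxi. Gansu and Hubei overlapped at a high level, and Chongqing and Shanxi were low without overlap. The Shanxi mean, 4.20 ± 0.274 FPKM (SD, n = 3), was the lowest of any member in any area and rested on 681 counts over the 3 libraries.

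4CL1 had 18.1, 18.7 and 16.4 FPKM in Chongqing and 47.9, 55.2 and 47.3 FPKM in Gansu. It had 113, 109 and 101 FPKM in Hubei and 45.7, 43.5 and 45.4 FPKM in Shanxi. Hubei stood above and Chongqing below the other areas, and in CPM the Gansu libraries, at 146 to 181, overlapped the Shanxi libraries, at 137 to 154. Among replicates, Gansu 2 and Hubei 1 were the highest library of their area for all 4 members.

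**Figure D1:**
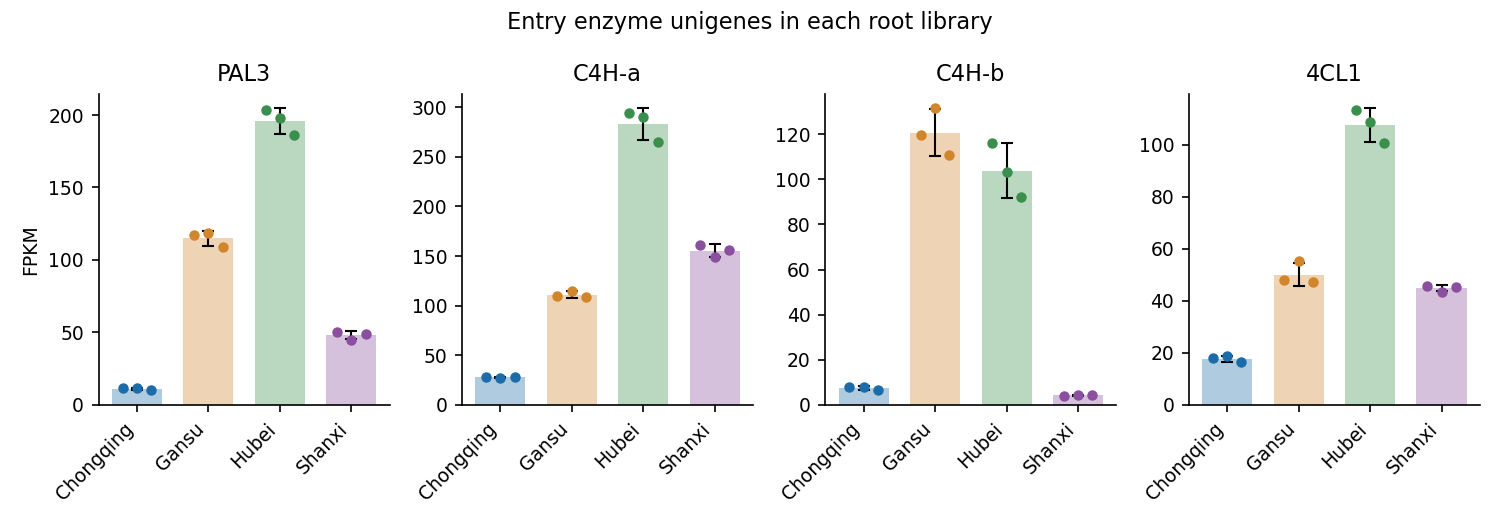
Level of each member in FPKM (y axis, a separate scale per panel) in the 4 areas. Points are the 3 libraries of an area, bars their mean and error bars the SD. PAL3, C4H-a and 4CL1 peak in Hubei, while C4H-b is high in Gansu and Hubei and near the bottom of its scale in Chongqing and Shanxi.

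Across 4 members and 6 pairs of areas, 22 of 24 differences were called and 2 were not, beside 38.5% to 50.5% of all tested unigenes in a pair. That background holds every unigene that passed the count filter, also those of few counts. No share called was computed for unigenes as abundant as the members. The libraries of the pair did not overlap in CPM in 22 of 24. The share of all unigenes without such overlap was not computed, so that count has no background. Fold changes are log2 and give the first area over the second, so that negative values mean less in the first. Each p is adjusted over all tested unigenes in the edgeR fit with 3 libraries per area.

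In Chongqing roots all 4 members were lower than in Gansu roots, where 38.5% of all tested unigenes were called and 19.1% were called lower. The means in CPM were 25.1 ± 2.05 in Chongqing and 256 ± 18.0 in Gansu for PAL3 (SD, n = 3 each), a log2 fold change of -3.35 ± 0.10 (SE, adjusted p = 3.2e-11). C4H-a averaged 55.8 ± 0.315 CPM in Chongqing and 222 ± 13.5 in Gansu (-1.99 ± 0.08). C4H-b had the largest change of the 4, with 17.1 ± 2.36 CPM in Chongqing and 277 ± 32.4 in Gansu, a log2 fold change of -4.01 ± 0.13 (adjusted p = 1.1e-10). 4CL1 had the smallest, with 56.8 ± 4.94 CPM in Chongqing and 159 ± 19.2 in Gansu (-1.49 ± 0.10, adjusted p = 7.8e-08). Among 16723 unigenes whose mean log2 CPM reached 3, 2.03% changed at least as much as PAL3 in either direction and 9.23% at least as much as 4CL1.

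All 4 members were also lower in Chongqing than in Hubei, a pair in which 49.6% of unigenes were called and 25.9% were called lower. PAL3 averaged 25.1 ± 2.05 CPM in Chongqing and 455 ± 34.2 in Hubei, 18.1-fold lower (log2 fold change -4.18 ± 0.10, SE, adjusted p = 2.6e-12). C4H-a followed with 55.8 ± 0.315 CPM in Chongqing and 591 ± 49.6 in Hubei (-3.40 ± 0.08). The log2 fold change was -3.86 ± 0.13 for C4H-b and -2.65 ± 0.10 for 4CL1, whose means were 56.8 ± 4.94 CPM in Chongqing and 356 ± 32.2 in Hubei. This pair gave the largest change of PAL3, C4H-a and 4CL1 among the 6 pairs.

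In Chongqing against Shanxi, PAL3, C4H-a and 4CL1 were lower and C4H-b was higher, where 47.8% of unigenes were called, 23.0% of them higher and 24.8% lower as shares of all tested. PAL3 averaged 25.1 ± 2.05 CPM in Chongqing and 111 ± 10.4 in Shanxi (log2 fold change -2.14 ± 0.09, SE, n = 3 libraries each, edgeR adjusted p = 7.5e-10). C4H-a fell further, with a log2 fold change of -2.52 ± 0.08 (adjusted p = 3.5e-11), and 4CL1 changed by -1.37 ± 0.10. C4H-b stood at 17.1 ± 2.36 CPM in Chongqing against 9.92 ± 0.393 CPM in Shanxi, 1.73-fold higher (0.79 ± 0.14, adjusted p = 0.00036). It is the exception among the 12 member-by-pair differences that involve Chongqing, since the other 11 were lower there.

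Gansu roots had less PAL3, C4H-a and 4CL1 than Hubei roots, in a pair where 50.5% of unigenes were called and 26.5% were called lower. C4H-a averaged 222 ± 13.5 CPM in Gansu and 591 ± 49.6 in Hubei (log2 fold change -1.41 ± 0.08, SE). The change was -1.16 ± 0.10 for 4CL1 and -0.83 ± 0.09 for PAL3 (adjusted p = 3.6e-06). C4H-b, with 277 ± 32.4 CPM in Gansu and 249 ± 36.7 in Hubei, was not called (0.16 ± 0.12, adjusted p = 0.288).

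In Gansu against Shanxi the members went different ways, in a pair where 44.1% of unigenes were called, 21.2% higher and 22.9% lower. PAL3 was higher in Gansu, with 256 ± 18.0 CPM against 111 ± 10.4 CPM in Shanxi (log2 fold change 1.21 ± 0.09, SE, adjusted p = 1.4e-07). C4H-b was 27.9-fold higher, with 277 ± 32.4 CPM in Gansu against 9.92 ± 0.393 in Shanxi (4.80 ± 0.14, adjusted p = 2.2e-11). C4H-a was lower, with 222 ± 13.5 CPM in Gansu against 321 ± 24.3 in Shanxi (-0.53 ± 0.08, adjusted p = 6.8e-05). 4CL1 was not called, with 159 ± 19.2 CPM in Gansu and 147 ± 8.90 in Shanxi (0.11 ± 0.10, adjusted p = 0.376). Of the 16723 unigenes whose mean log2 CPM reached 3, 1.11% changed at least as much as C4H-b and 42.6% at least as much as C4H-a.

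All 4 members were higher in Hubei than in Shanxi, where 44.6% of unigenes were called with 23.5% higher and 21.0% lower. C4H-b led with a log2 fold change of 4.65 ± 0.14 (SE, adjusted p = 4.2e-11) and means of 249 ± 36.7 CPM in Hubei and 9.92 ± 0.393 in Shanxi. PAL3 had 455 ± 34.2 CPM in Hubei and 111 ± 10.4 in Shanxi (2.04 ± 0.09). 4CL1 changed by 1.28 ± 0.10 and C4H-a by 0.88 ± 0.08.

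**Figure D2:**
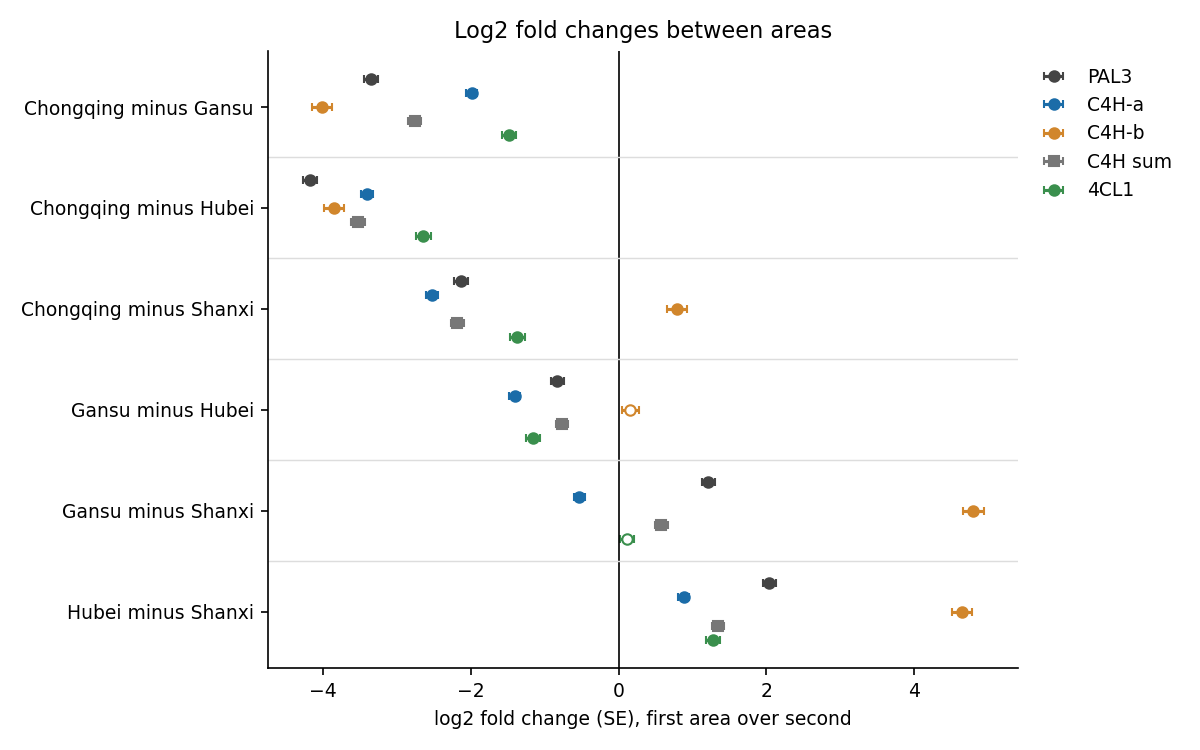
Log2 fold change of each member and of the summed C4H counts (x axis, first area over second, bars show the SE) in the 6 pairs of areas (y axis). Filled symbols were called at an edgeR adjusted p under 0.05 and open symbols were not. The members line up on the left in Chongqing against Gansu and Hubei and spread over both sides in Gansu against Shanxi, from -0.53 for C4H-a to 4.80 for C4H-b.

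Both C4H unigenes match the same protein, and the areas divided the C4H counts between them in different proportions. C4H-b took 24.3%, 25.3% and 20.6% of the C4H counts in Chongqing and 55.5%, 56.8% and 53.9% in Gansu. It took 31.2%, 28.9% and 28.5% in Hubei and 2.68%, 3.27% and 3.07% in Shanxi. The ranges did not overlap, and C4H-b held most of the C4H counts in Gansu alone. The largest distance between area means was 52.4 percentage points, and an exact permutation test over the 15400 partitions of the libraries into 4 areas of 3 gave a one-sided p of 6.5e-05, the smallest these partitions can give. Measured as a share of FPKM, C4H-b held 21.1% ± 2.27 (Chongqing), 52.0% ± 1.44 (Gansu), 26.8% ± 1.38 (Hubei) and 2.63% ± 0.265 (Shanxi) (SD, n = 3 each).

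**Figure D3:**
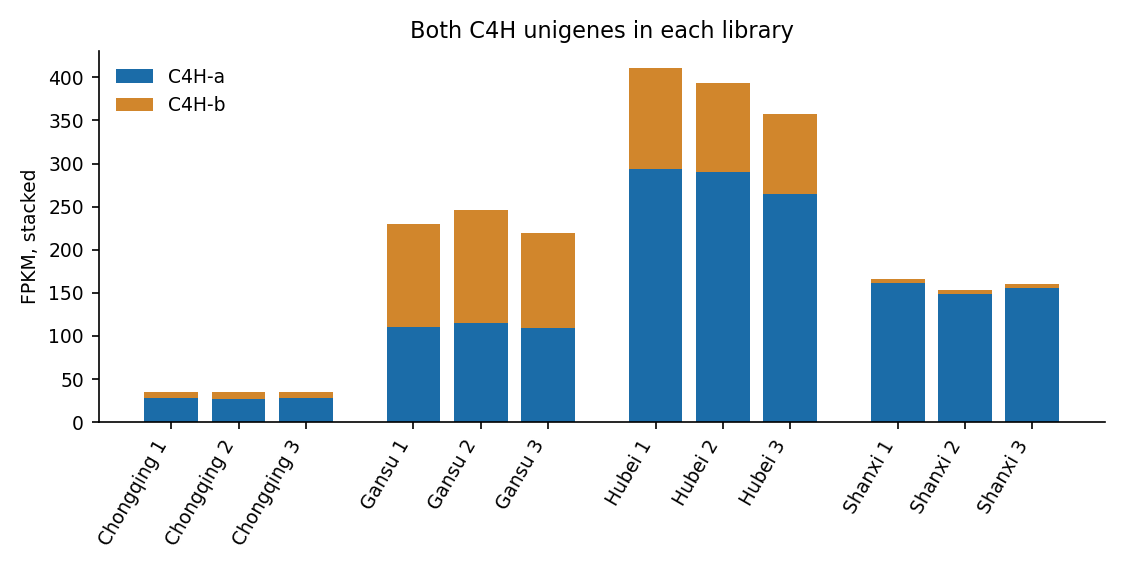
FPKM of C4H-a (lower, blue) and C4H-b (upper, orange), stacked, in each of the 12 libraries. C4H-b makes up about as much of the bar as C4H-a in Gansu and is a thin cap in Shanxi, where it held 2.63% of the summed FPKM.

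The sum of both unigenes differed in direction or call from C4H-a in 1 pair of areas and from C4H-b in 2 pairs. Total C4H averaged 72.99 ± 2.55 CPM (Chongqing), 499 ± 45.7 (Gansu), 840 ± 85.2 (Hubei) and 331 ± 24.1 CPM (Shanxi) (SD, n = 3 each). The Gansu libraries, at 460 to 550 CPM, stood above the Shanxi libraries, at 306 to 354 CPM, and the sum was higher in Gansu by a log2 fold change of 0.58 ± 0.08 (SE, edgeR adjusted p = 6.8e-05 over all proteins), while C4H-a alone was lower there. Of all summed proteins 44.6% were called in that pair. In the other pairs the sum kept the sign of C4H-a. Against C4H-b, it turned the direction of Chongqing against Shanxi, where C4H-b alone was higher in Chongqing, and was called lower in Gansu against Hubei, where C4H-b alone was not called. It changed by -2.76 ± 0.09 for Chongqing against Gansu, where 38.8% of the sums were called, by -3.53 ± 0.09 for Chongqing against Hubei (49.8%) and by -2.18 ± 0.09 for Chongqing against Shanxi (47.8%). The change was -0.77 ± 0.08 for Gansu against Hubei (50.7%) and 1.34 ± 0.09 for Hubei against Shanxi (44.7%). The order of areas for total C4H was Hubei, Gansu, Shanxi, Chongqing, which is that of PAL3.

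The 4 members were not scaled by one factor from area to area. Ratios of FPKM within a library, which need no scaling between libraries, were compared over the areas with the same exact permutation test. For each of the 6 pairs of members the one-sided p was 6.5e-05, the smallest possible, and the same after Benjamini-Hochberg adjustment over the 6. C4H-a stood at 2.49 times PAL3 (Chongqing), 0.968 times (Gansu), 1.45 times (Hubei) and 3.24 times (Shanxi). On the log2 scale these ratios were 1.31 ± 0.12, -0.05 ± 0.04, 0.53 ± 0.02 and 1.69 ± 0.03 (SD, n = 3 each). C4H-a stood highest against PAL3 in Shanxi and Chongqing, the areas with the least PAL3.

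4CL1 stood at 1.59 times PAL3 (Chongqing), 0.436 times (Gansu), 0.549 times (Hubei) and 0.935 times (Shanxi). Chongqing was the one area in which 4CL1 exceeded PAL3 per length in every library. C4H-b against PAL3 ran from 0.0873 times in Shanxi to 1.05 times in Gansu, with 0.661 times in Chongqing and 0.529 times in Hubei. The smallest spread between areas was that of 4CL1 to C4H-a, 2.22-fold, and the largest that of C4H-b to C4H-a, 40.2-fold.

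With both C4H unigenes summed, the ratio to PAL3 varied less, 1.68-fold between areas (exact one-sided permutation p = 0.0016). It was 3.15 (Chongqing), 2.02 (Gansu), 1.98 (Hubei) and 3.32 (Shanxi). Total C4H exceeded PAL3 per length in each area. The ratio of 4CL1 to total C4H was 0.505 (Chongqing), 0.216 (Gansu), 0.278 (Hubei) and 0.281 (Shanxi) (p = 0.00019 in the same exact test). PAL3 and 4CL1 are not the only unigenes of their enzymes, so these ratios do not compare whole steps. Summed over the 4 unigenes described as 4CL, the level averaged 40.2 FPKM (Chongqing), 92.7 (Gansu), 182 (Hubei) and 84.5 (Shanxi). Total C4H averaged 35.1, 232, 387 and 160 FPKM in the same order, so these 4 together exceeded it in Chongqing alone. By another label of the annotation, the KEGG orthology number, 7 unigenes share that of 4CL1. Their sum was not computed, so the comparison holds for the 4 described as 4CL. Summed PAL averaged 20.8 FPKM (Chongqing), 175 (Gansu), 271 (Hubei) and 86.9 (Shanxi). Ratios between the PAL, C4H and 4CL sums were not tested.

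**Figure D4:**
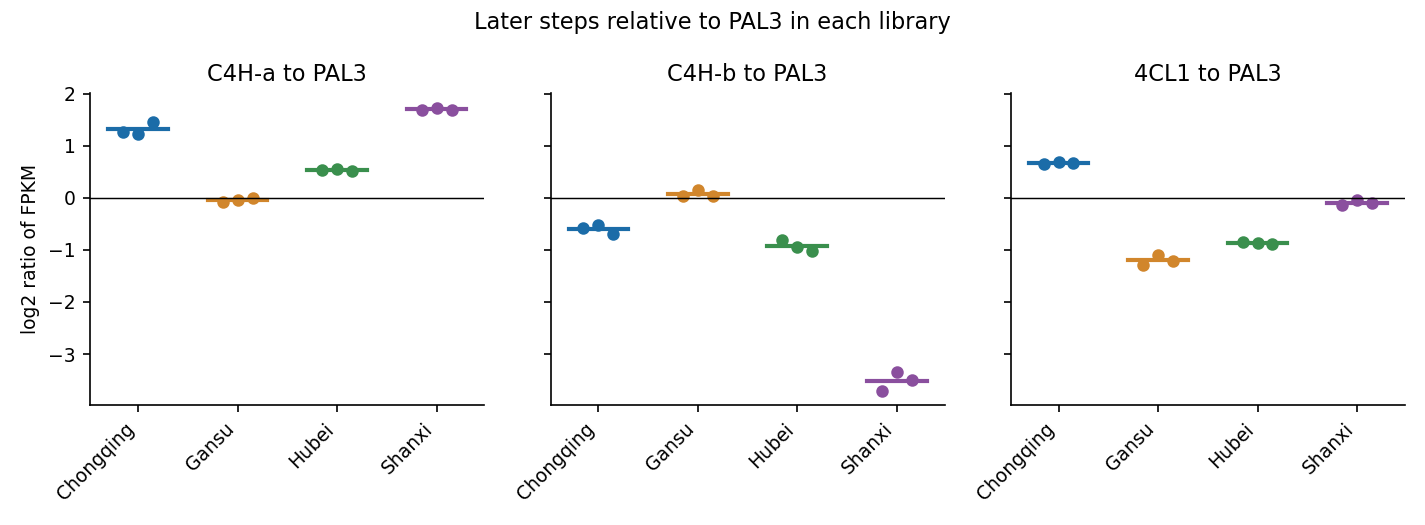
Log2 ratio of FPKM to PAL3 (y axis) for C4H-a, C4H-b and 4CL1 in each library of the 4 areas. Points are libraries, short lines area means and the thin line at 0 marks equal levels. C4H-a and 4CL1 stand highest against PAL3 in Shanxi and Chongqing, and C4H-b falls to -3.52 in Shanxi.

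In all, 8 unigenes were described as PAL, C4H or 4CL, and 4 of them are not members. A second PAL unigene, PAL1 (TRINITY_DN21310_c0_g2_i1_4), averaged 19.9 ± 1.04 CPM (Chongqing), 122 ± 8.97 (Gansu), 160 ± 20.6 (Hubei) and 82.1 ± 9.42 CPM (Shanxi). Its order of areas was that of PAL3, and it was called in all 6 pairs, with log2 fold changes of -3.01 ± 0.11 for Chongqing against Hubei and 0.57 ± 0.10 for Gansu against Shanxi. How many of all tested unigenes were called in all 6 pairs was not computed. PAL3 held 55.7% ± 0.803 of the PAL counts (Chongqing), 67.7% ± 0.122 (Gansu), 74.0% ± 1.05 (Hubei) and 57.4% ± 0.524 (Shanxi) (SD, n = 3 each). By FPKM its share was 53.6% ± 0.810 (Chongqing), 65.8% ± 0.125 (Gansu), 72.3% ± 1.09 (Hubei) and 55.3% ± 0.530 (Shanxi), so PAL3 was the larger of the pair in each area by either unit.

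The other 3 4CL unigenes (TRINITY_DN18825_c0_g1_i2_4, TRINITY_DN23319_c1_g4_i1_3 and TRINITY_DN22443_c1_g4_i1_2) were highest in Hubei and lowest in Chongqing, as 4CL1 was. The most abundant of them averaged 20.2 ± 0.939 CPM (Chongqing), 38.3 ± 1.61 (Gansu), 59.9 ± 2.14 (Hubei) and 34.2 ± 1.15 CPM (Shanxi). All 4 were lower in Chongqing than in Hubei and higher in Hubei than in Shanxi, beside 25.9% and 23.5% of all tested unigenes. In Gansu against Shanxi, where 44.1% of all unigenes were called, edgeR called none of the 4. In that pair 1 was called by DESeq2, by limma and with a filter of 50 counts in 3 libraries. At an unadjusted p under 0.05, edgeR counted 1 of the 4, higher in Gansu. Of the counts of these 4 unigenes, 4CL1 held 69.5% ± 1.02 (Chongqing), 77.1% ± 1.27 (Gansu), 81.7% ± 1.33 (Hubei) and 77.2% ± 0.789 (Shanxi). Its share was lower per length, at 44.1% ± 0.496 of the 4CL FPKM (Chongqing), 54.0% ± 1.80 (Gansu), 59.2% ± 2.93 (Hubei) and 53.1% ± 1.29 (Shanxi), and in Chongqing the other 3 together exceeded 4CL1.

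Another 7 unigenes were described as 4CL-like, which belong to the same enzyme superfamily and whose substrates the files do not give. Of these 5 had their highest mean in Hubei, as all 4 of the 4CL unigenes had, and the difference between the lists was not tested. No share of all unigenes highest in Hubei was computed, so these counts have no background. In Chongqing against Gansu edgeR called 2 of the 7 higher and none lower (3 higher and 0 lower at an unadjusted p under 0.05, and 2 and 0 by DESeq2), where 19.4% of all tested unigenes were higher and 19.1% lower. The higher ones numbered 1 without Chongqing replicate 2, without Gansu replicate 1 or 3 and with only those areas fitted, and 4 without Gansu replicate 2. In Chongqing against Hubei 3 were lower and 1 higher, beside 25.9% and 23.6% of all unigenes, with a median log2 fold change of -0.11 against 0 over all tested unigenes. In Gansu against Hubei 4 were lower and 1 higher, beside 26.5% and 24.0%. In Hubei against Shanxi 5 were higher and none lower (7 and 0 at an unadjusted p under 0.05, and 5 and 0 by DESeq2), beside 23.5% and 21.0%.

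A 4CL-like 5 unigene (TRINITY_DN19403_c0_g1_i1_2) was highest in Chongqing, with 57.4 ± 5.29 CPM there, 48.4 ± 4.54 in Gansu, 37.7 ± 2.82 in Hubei and 10.9 ± 0.499 in Shanxi. A 4CL-like 9 unigene (TRINITY_DN20826_c0_g2_i1_2) stood at 3.02 ± 0.344 CPM (Chongqing), 3.24 ± 0.525 (Gansu), 26.1 ± 2.18 (Hubei) and 21.2 ± 1.48 CPM (Shanxi). Of the 4 unigenes described as 4CL, 3 were lower in Chongqing than in Gansu, beside 19.1% of all tested unigenes, with a median log2 fold change of -0.92.

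Enzymes that supply phenylalanine, the substrate of PAL, formed a list of 44 unigenes. In Chongqing against Gansu 20 (45.5%) were lower and 6 (13.6%) higher, beside 19.1% and 19.4% of all tested unigenes, with a median log2 fold change of -0.41. Against Hubei 22 of the 44 were lower and 8 (18.2%) higher in Chongqing, beside 25.9% and 23.6%, with a median of -1.03. Against Shanxi 25 (56.8%) were lower and 8 (18.2%) higher in Chongqing, beside 24.8% and 23.0%, with a median of -0.90. The median of all tested unigenes was 0 in these 3 pairs. Those higher than in Shanxi came to 5 without Chongqing replicate 1, 2 or 3 or Shanxi replicate 2 or 3. The counts lay nearer to those of all unigenes in Gansu against Hubei, with 13 (29.5%) lower and 8 (18.2%) higher beside 26.5% and 24.0%, and in Gansu against Shanxi, with 10 (22.7%) each way beside 22.9% and 21.2%. In Hubei against Shanxi 16 (36.4%) were higher and 9 (20.5%) lower, beside 23.5% and 21.0%. Taking the most abundant unigene of each of 9 enzyme names, 7 were called lower in Chongqing than in each other area. The share of all tested unigenes called lower in all 3 of these pairs was not computed, so this count has no background.

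DAHP synthase 1 (TRINITY_DN23829_c0_g1_i10_4), the first enzyme of the shikimate pathway, averaged 72.8 ± 4.65 CPM (Chongqing), 589 ± 48.0 (Gansu), 803 ± 65.6 (Hubei) and 526 ± 36.9 CPM (Shanxi). A prephenate aminotransferase (TRINITY_DN21644_c1_g1_i15_1), which makes arogenate, averaged 11.9 ± 1.71 CPM (Chongqing), 139 ± 29.7 (Gansu), 152 ± 18.3 (Hubei) and 36.1 ± 7.28 CPM (Shanxi). Arogenate dehydratase 1 (TRINITY_DN19543_c0_g1_i2_4), which makes phenylalanine, averaged 18.3 ± 1.32 CPM (Chongqing), 101 ± 9.16 (Gansu), 86.6 ± 8.19 (Hubei) and 47.1 ± 3.60 CPM (Shanxi). In all 3 Shanxi stood above Chongqing, the reverse of their order for C4H-b. Exceptions were chorismate mutase 2 (TRINITY_DN12998_c0_g1_i3_1), which was higher in Chongqing than in Gansu (0.33 ± 0.10, adjusted p = 0.0203), and a second arogenate dehydratase (TRINITY_DN23239_c0_g2_i6_4), which was highest in Shanxi at 34.6 ± 0.486 CPM.

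C4H draws its electrons from NADPH-cytochrome P450 reductase. The most abundant reductase unigene (TRINITY_DN23407_c2_g1_i1_3) was highest in Chongqing, where the C4H sum was lowest, and lowest in Hubei, where the sum was highest, with 219 ± 6.40 CPM (Chongqing), 157 ± 14.1 (Gansu), 111 ± 8.63 (Hubei) and 133 ± 7.61 CPM (Shanxi). It was higher in Chongqing in all 3 pairs, by a log2 fold change of 0.98 ± 0.08 over Hubei (SE, edgeR adjusted p = 2.4e-07). In Gansu against Shanxi it was higher (0.24 ± 0.08, adjusted p = 0.0213), as the C4H sum was. Of 10 reductase unigenes, 5 were higher and 2 lower in Chongqing than in Gansu (19.4% and 19.1% of all unigenes), 2 were higher and 1 lower than in Hubei (23.6% and 25.9%), and 3 were higher and 3 lower than in Shanxi (23.0% and 24.8%). The lower ones numbered 1 against Gansu with the filter of 50 counts, and 2 against Hubei without Gansu replicate 1 or with only those areas fitted.

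Branch enzymes downstream of 4CL were mixed. By the most abundant unigene of each enzyme, 6 of 8 in the monolignol list were called lower in Chongqing than in each other area. So were 1 of 2 in the coumarin entry list and 1 of 2 in the flavonoid entry list. As for the supply enzymes, these counts have no background. Hydroxycinnamoyltransferase (HCT, TRINITY_DN23979_c0_g1_i4_3), which takes the 4CL product towards lignin, averaged 28.9 ± 4.39 CPM (Chongqing), 125 ± 14.9 (Gansu), 454 ± 42.5 (Hubei) and 92.7 ± 4.70 CPM (Shanxi). The hydroxylase CYP98A2 (TRINITY_DN19773_c1_g2_i4_2), which acts after HCT, averaged 8.15 ± 0.394 CPM (Chongqing), 172 ± 15.0 (Gansu), 508 ± 50.4 (Hubei) and 107 ± 7.69 CPM (Shanxi). Both had the order of areas of PAL3. Caffeoylshikimate esterase (TRINITY_DN22500_c0_g2_i4_2) did not, with 182 ± 8.68 CPM (Chongqing), 84.3 ± 10.6 (Gansu), 109 ± 4.82 (Hubei) and 146 ± 7.84 CPM (Shanxi).

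Of 67 tested monolignol unigenes, 38 (56.7%) were lower and 18 (26.9%) higher in Chongqing than in Hubei, beside 25.9% and 23.6% of all unigenes, with a median log2 fold change of -0.80. In Gansu against Shanxi 23 (34.3%) were higher and 23 lower, beside 21.2% and 22.9%. A caffeic acid O-methyltransferase (TRINITY_DN23928_c0_g1_i5_3), which methylates lignin precursors, was highest in Shanxi, with 8.95 ± 1.14 CPM (Chongqing), 64.4 ± 3.22 (Gansu), 310.1 ± 34.1 (Hubei) and 1600.1 ± 113 CPM (Shanxi). CYP84A1 (TRINITY_DN8705_c0_g1_i1_4), the ferulate 5-hydroxylase of the lignin branch, was prominent in Hubei, with 10.9 ± 1.29 CPM (Chongqing), 19.4 ± 2.47 (Gansu), 302 ± 28.8 (Hubei) and 26.8 ± 1.68 CPM (Shanxi).

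In the coumarin branch, the ortho-hydroxylase F6'H (TRINITY_DN22251_c0_g1_i3_3), which hydroxylates feruloyl-CoA on the way to the coumarin ring, averaged 16.6 ± 1.57 CPM (Chongqing), 609 ± 36.8 (Gansu), 352 ± 22.5 (Hubei) and 253 ± 24.1 CPM (Shanxi). It had a log2 fold change of -5.20 ± 0.10 for Chongqing against Gansu, beside -4.01 for C4H-b and -3.35 for PAL3. It was higher in Gansu than in Hubei (0.79 ± 0.08, adjusted p = 4.2e-06), where PAL3, C4H-a and 4CL1 were lower. Of 12 tested coumarin entry unigenes, 6 were lower and 2 higher in Chongqing than in Gansu (median log2 fold change -2.52), beside 19.1% and 19.4% of all unigenes, and 1 was higher with the filter of 50 counts. Scopoletin 8-hydroxylase (TRINITY_DN12820_c0_g2_i3_1), which acts on a finished coumarin, was highest in Chongqing, with 37.2 ± 2.01 CPM (Chongqing), 13.2 ± 1.61 (Gansu), 9.03 ± 3.17 (Hubei) and 0.0149 ± 0.0258 CPM (Shanxi). Chalcone synthase 2 (CHS2, TRINITY_DN22168_c2_g1_i3_4), the entry enzyme of the flavonoid branch, averaged 7.54 ± 0.628 CPM (Chongqing), 622 ± 31.9 (Gansu), 1.51 ± 0.551 (Hubei) and 0.987 ± 0.104 CPM (Shanxi). Of 6 tested flavonoid entry unigenes 2 were higher and 2 lower in Chongqing than in Gansu, beside the same shares of all unigenes, and 1 was higher without Gansu replicate 1.

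**Figure D5:**
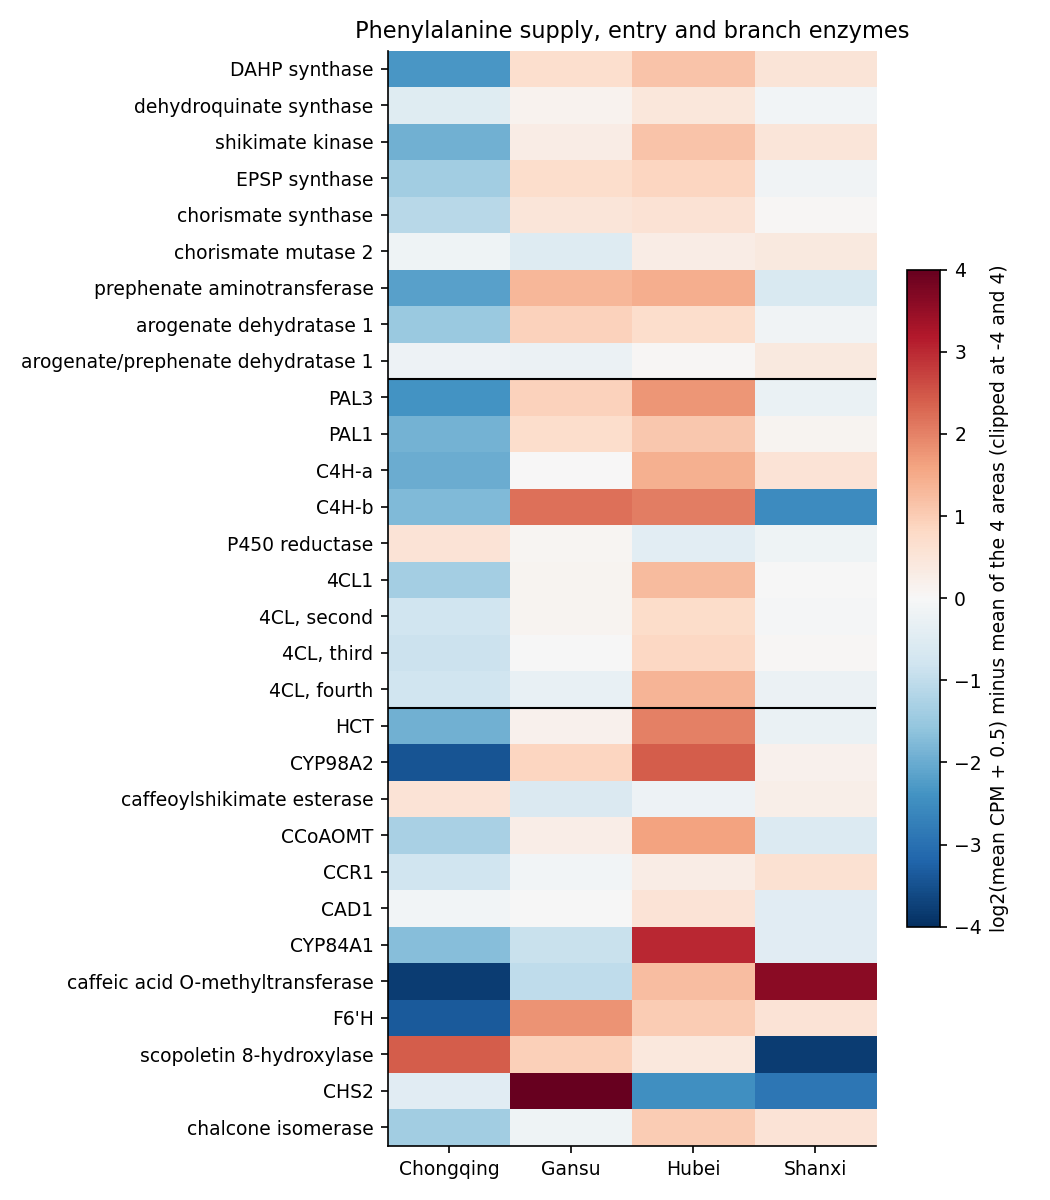
Area means of named unigenes as log2(CPM + 0.5) minus the mean of the 4 areas for that unigene (colour, red above and blue below, clipped at -4 and 4), with the areas as columns. Lines separate phenylalanine supply (top), the entry enzymes with the P450 reductase (middle) and branch enzymes (bottom). Most supply and entry rows are blue in Chongqing, while the reductase and caffeoylshikimate esterase rows are pale red there and scopoletin 8-hydroxylase is deep red.

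Markers of tissues that a root sample can hold also differed between areas. The summed level of 22 phloem unigenes was 83.3 to 93.3 CPM in the Chongqing libraries, 271 to 297 in Gansu, 194 to 212 in Hubei and 368 to 407 in Shanxi. Of these, the 9 sieve element occlusion unigenes, which define phloem, summed to 3.05 to 4.50 CPM (Chongqing), 6.42 to 7.34 (Gansu), 21.2 to 23.2 (Hubei) and 13.1 to 15.2 (Shanxi). These 9 were lowest in Chongqing and highest in Hubei, as were PAL3, C4H-a and 4CL1. The 22 together were also lowest in Chongqing but highest in Shanxi, with Hubei below Gansu. The part of phloem in the result was not tested.

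The 23 xylem and secondary wall unigenes summed to 195 to 205 CPM (Chongqing), 222 to 229 (Gansu), 181 to 189 (Hubei) and 160 to 165 (Shanxi), a narrower span than that of any member. Among them the 11 secondary wall cellulose synthase subunits, which define xylem with thickened walls, summed to 2.26 to 2.88 CPM (Chongqing), 8.21 to 10.0 (Gansu), 3.20 to 3.87 (Hubei) and 1.92 to 2.45 (Shanxi). The order of their area means was that of C4H-b, but they averaged 9.06 CPM in Gansu against 3.44 in Hubei, a pair in which C4H-b was not called. The 23 together had another order, Gansu, Chongqing, Hubei, Shanxi. The part of xylem in the result was not tested. Casparian strip membrane proteins, markers of the root endodermis, were at 1.86 to 2.87 CPM in Chongqing and 9.06 to 11.7 in Gansu. They were near 0 in Hubei, at 0 to 0.326 CPM, and in Shanxi, at 0 to 0.528 CPM. These low values rested on 10 counts in Hubei and 23 in Shanxi. The 13 endodermis and periderm unigenes as a whole summed to 3.85 to 4.44 CPM (Chongqing), 9.26 to 12.2 (Gansu), 1.88 to 2.74 (Hubei) and 2.88 to 3.52 (Shanxi). The 16 leaf photosynthesis unigenes summed to 397 to 421 CPM (Chongqing), 265 to 307 (Gansu), 376 to 420 (Hubei) and 414 to 445 (Shanxi).

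The unigenes most like each member over the 12 libraries were sought among 13508 that had a description, another best protein match and a mean log2 CPM reaching 3, by Pearson's r of log2 CPM. The libraries fall into 4 areas, so the points are 4 clusters of 3, which share one scaling to library size. Nearest to PAL3 were heat shock factor HSF24 (TRINITY_DN19598_c0_g1_i1_3, r = 0.997), S-adenosylmethionine synthase 2 (TRINITY_DN17817_c0_g1_i2_4, 0.994), which makes the methyl donor, and beta-glucosidase 13 (TRINITY_DN21258_c1_g5_i1_2, 0.994). Nearest to C4H-a were isocitrate lyase (TRINITY_DN14597_c0_g1_i1_2, 0.999), a pathogenesis-related protein A (TRINITY_DN17288_c0_g1_i1_3, 0.999) and the gibberellin receptor GID1B (TRINITY_DN20344_c0_g1_i2_2, 0.997).

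Nearest to C4H-b were a glutamic acid-rich protein (TRINITY_DN21811_c0_g1_i10_4, 0.995), a 2-methylene-furan-3-one reductase (TRINITY_DN23233_c12_g2_i2_1, 0.994) and the transcription factor MYB44 (TRINITY_DN19662_c0_g1_i1_4, 0.993). Nearest to 4CL1 was the second 4CL unigene (TRINITY_DN18825_c0_g1_i2_4, 0.995), before a polyphenol oxidase (TRINITY_DN14988_c0_g1_i1_2, 0.995) and the hydroxyproline galactosyltransferase HPGT3 (TRINITY_DN16118_c0_g1_i1_3, 0.995). An r of 0.95 or more was reached by 171 unigenes for PAL3, 262 for C4H-a, 58 for C4H-b and 218 for 4CL1. C4H-b had the fewest such unigenes.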

How the data were processed

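RNA of 12 root libraries was measured. The authors deposited estimated counts per unigene (values that need not be whole, as the deposited table shows) and FPKM, which the authors scaled for length and library total. Dividing the deposited counts by FPKM gave 1 length per unigene within 1% for all 59197 checked. The submitters' processing notes list RSEM, featureCounts, Bowtie2, Trimmomatic, FastQC and DESeq2, whose roles, versions and settings the sources used here do not give. The unigene identifiers as deposited are those of a de novo assembly.

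Counts were rounded. edgeR (4.0.16, R 4.3.3; glmQLFit, glmQLFTest, TMM, filterByExpr by area) fitted all 12 libraries at once with no covariate and 8 residual degrees of freedom, testing 60756 unigenes overall and in 6 pairs of areas, with Benjamini-Hochberg adjustment over all tested. The biological coefficient of variation was 0.251, and TMM factors lay between 0.941 and 1.05. The SE is the absolute log2 fold change over the square root of F. The same fit was run on counts summed per best protein match (49479 tested). Ratios and shares used exact permutation over 15400 partitions. CPM are TMM-scaled, with an offset of 0.5 for correlations. Only the edgeR fit was tested on simulated counts, for Chongqing against Gansu. Its recovery criterion was limited to the more abundant unigenes after misses were seen among the less abundant. Alternatives were RLE, DESeq2 (1.42.0), other filters, limma (3.58.1) on log2(FPKM + 1) and log2(FPKM + 0.1), a replicate block, fits of 2 areas and each library left out. Named are the members, the other PAL, C4H and 4CL unigenes of 1 CPM or more on average, the 4CL-like unigenes, the most abundant tested unigene of each enzyme of the other lists, and the 3 unigenes most like each member. Members and lists were chosen with earlier results of these data known, and acyltransferases of another kind were taken out of the endodermis list once the annotations had been seen.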

Additional observations from a re-analysis of the deposited data

How the results depend on the processing

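Across the alternatives and the removal of each library, 0 of 804 values changed direction, side of the threshold or, for counts, by over 1.5 times. These were the counts of called unigenes, the members' fold changes, the C4H sum, the ratios and the C4H-b share. Leaving out 1 library at a time moved the fold change of C4H-b in Gansu against Hubei between 0.05 and 0.27 and that of 4CL1 in Gansu against Shanxi between 0.01 and 0.17, without a call. The C4H sum in Gansu against Shanxi stayed between 0.50 and 0.67. Of 2160 counts of list members, 28 moved by over 1.5 times, each in a list of 44 or fewer unigenes. Replicate numbers did not pair the libraries: the deviations of same-numbered libraries correlated at -0.09 to 0.08 over 18 pairs, none over 0.1, and 3 libraries correlated best with their own number. With a replicate block, the count of unigenes different between any of the 4 areas was 41308, against 42773 without it.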

Other observations

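The deposited FPKM table has a column without a name beside the identifiers. It holds 17 unigene identifiers, among them 7 of the 8 unigenes described as PAL, C4H or 4CL and 3 of the 4 members. The member it leaves out is C4H-b. What the column marks is not given in the sources used here.

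The distance of the C4H unigenes from each other was largest in Shanxi. Per length, C4H-b stood at 0.0270 times C4H-a in Shanxi, against 0.266 times in Chongqing, 1.08 times in Gansu and 0.366 times in Hubei.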
